A study of Mus musculus with 8 samples.

Results

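The untreated adult pancreas of wild type mice was described gene by gene from 4 of the 8 libraries of the series, namely those labelled Bach2WT. These 4 mice carried no Bach2 deletion and came from the C57BL/6N-Bach2tm1b(EUCOMM)Wtsi/leg strain, in which the other 4 mice (Bach2KO) were homozygous for the tm1b allele. All mice were 18 weeks old, untreated and kept under specific pathogen-free conditions. Mice 1 and 2 were female, mice 3 and 4 male, and each library came from the homogenized pancreatic tissue of 1 mouse. RNA was selected with poly-T beads and sequenced as paired-end reads, and the values are counts per gene and FPKM, a count scaled by gene length and by library. In such bulk tissue, fewer cells of a type and less RNA per cell cannot be told apart. The Bach2KO libraries entered only where the spread between mice was set beside that in other animals, and in 1 alternative fit of the sex comparison.

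Most of the pancreas is exocrine. Acinar cells make digestive enzymes, largely as inactive zymogens, pack them into granules and secrete them into ducts, whose epithelium adds bicarbonate-rich fluid. The endocrine pancreas consists of scattered islets that release insulin, glucagon and other hormones into the blood. Fibroblasts, stellate cells, vessels and a few immune cells make up the remainder of the tissue.

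The libraries held 81648148, 152872514, 172029360 and 84052687 counts in mice 1 to 4, on 21434 genes of the table. At least 10 counts were found in every mouse for 10386 genes, and 2673 genes had no count in any of the 4 mice. At these depths, 3 counts in a library, taken as the floor of detection, corresponded to 0.0191 to 0.0388 CPM (the count scaled to library depth, after TMM normalization). Intervals and floors cover counting error only. TMM factors were 0.912 to 0.956 in mice 2 to 4 and 1.25 in mouse 1, whose summed FPKM (641922) was also below that of the others (873658 to 919354). The shares of counts given next do not use this scaling.

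A handful of genes filled the transcriptome. Between 6 and 7 genes held 50% of all counts in each mouse, 19 to 23 genes held 90%, and 2294 to 3309 genes held 99%. The 5 genes with the largest shares together took 44.5% ± 1.85 of the counts (SD, n = 4), the first 10 took 70.2% ± 0.989 and the first 30 took 92.3% ± 0.528. By FPKM, which corrects for gene length, 16 genes averaged at least 10000, 31 at least 1000, 112 at least 100, 567 at least 10 and 2894 at least 1. The median FPKM of genes at 1 or more was 2.69. The gene at the top, Ctrb1, stood 69559.7-fold above that median.

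Ctrb1, which encodes chymotrypsinogen B, ranked first in every mouse on both scales. It took 14.2%, 15.997%, 14.6% and 14.7% of the counts in mice 1 to 4, and its FPKM was 143142, 208972, 196846 and 200546. It held 22.5% ± 0.702 of the summed FPKM, 13.8 ± 1.27 percentage points more than the next gene, Prss2, and was above it in 4 of 4 mice. Ctrb1 (ENSMUSG00000031957) lies on chromosome 8 at 112413151 to 112417642 on the minus strand of mm39, as do all gene positions given here.

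Below Ctrb1 the order per length was Prss2, Try4, Cela2a, Cpa1, Ctrl, Cela1, Clps, Pnlip, Cela3b, Try5, 2210010C04Rik, Cel, Rnase1 and Zg16. Prss2, a trypsinogen, had an FPKM of 51985, 72302, 80592 and 86665 in mice 1 to 4. Try4, a further trypsinogen, had 40995, 95815, 50012 and 73178, and its place relative to Prss2 was reversed in 1 of 4 mice. Most neighbours in this order were not separated beyond their spread. Only 4 of the 14 neighbouring pairs kept the same order in all 4 mice, which were Ctrb1 over Prss2, Cpa1 over Ctrl, Cel over Rnase1 and Rnase1 over Zg16. Clps and Pnlip, for instance, differed by 0.111 ± 0.518 percentage points of the summed FPKM.

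The order by share of counts, which favours long transcripts, put Cela1 (8.17% ± 1.14) second, followed by Cela2a (7.60% ± 1.01), Cpa1 (7.19% ± 0.257), Pnlip (6.71% ± 0.644), 2210010C04Rik (5.67% ± 0.404) and Prss2 (5.33% ± 0.479). Cel (5.06% ± 0.447), Cela3b (4.97% ± 0.707), Try4 (4.66% ± 1.499) and Ctrl (4.38% ± 0.307) completed the genes above 4%. Among the first 30 genes, those that encode no digestive enzyme were the granule or secreted proteins Zg16, Sycn, Dmbt1, Gp2, Reg1, Tff2 and Pdia2 (a disulfide isomerase of the pancreas), the ribosomal protein Rpl41, the elongation factor Eef2 and Rn18s-rs5, a copy of the 18S ribosomal RNA. Tff2 had an FPKM of 4534, 6251, 6035 and 6795, and took 0.311% ± 0.0162 of the counts.

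**Figure D1:**
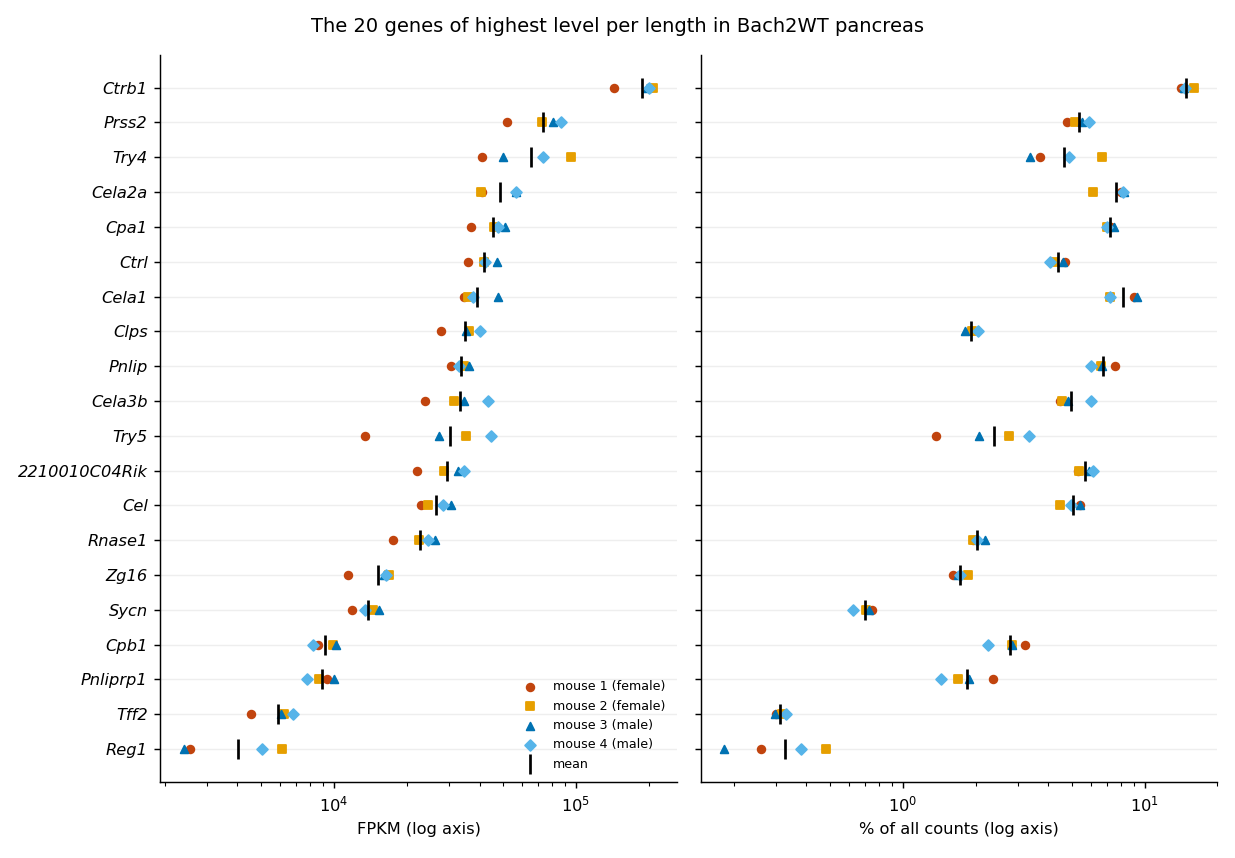
FPKM (left) and share of all counts (right) of the 20 genes with the highest mean FPKM, both on log axes; each symbol is 1 Bach2WT mouse and the bar is the mean of the 4. Ctrb1 stands apart from the other genes on both scales, whereas Try4, Try5 and Reg1 spread more widely between mice than Cpa1, Cel or Rnase1.

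The promoters of the most abundant genes were searched for the letters TATAAA, the core of the classical TATA box, starting 40 to 20 bases before the annotated start, on the strand of the gene only. Of the 30 genes with the largest share of counts, 23 had an entry in the RefSeq promoter table (build GRCm38.p6), and 7 of these (30.4%) held the letters there. They were found in 2.05% of the 13397 genes of the whole table that had an entry, and in 1.99% of all 32851 promoters. Along the order of FPKM of protein_coding genes, the share was 29.2% in the first 30 (7 of 24 with an entry), 4.55% in the next 70 (2 of 44), 2.05% in the next 900 (15 of 733) and 1.55% in the next 4000 (50 of 3217). The genes at the top are not independent of each other, since 3 of the 7 are trypsinogen copies from 1 locus. The stretch from 80 bases before to 20 bases after the start is shown for those 7 genes, with TATAAA in capitals, beside that of Ctrb1, the most abundant gene, where these letters do not occur in the searched window.
Ctrb1: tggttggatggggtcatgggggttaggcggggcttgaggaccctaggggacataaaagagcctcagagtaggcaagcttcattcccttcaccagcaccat
Cela1: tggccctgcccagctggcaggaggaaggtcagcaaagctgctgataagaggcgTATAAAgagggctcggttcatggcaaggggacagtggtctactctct
Pnlip: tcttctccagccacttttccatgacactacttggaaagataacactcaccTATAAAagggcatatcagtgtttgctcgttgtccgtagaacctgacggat
2210010C04Rik: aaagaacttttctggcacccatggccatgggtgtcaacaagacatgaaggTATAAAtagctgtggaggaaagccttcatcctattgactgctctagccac
Try4: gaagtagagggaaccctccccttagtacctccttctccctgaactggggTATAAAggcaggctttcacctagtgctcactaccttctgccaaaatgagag
Prss3: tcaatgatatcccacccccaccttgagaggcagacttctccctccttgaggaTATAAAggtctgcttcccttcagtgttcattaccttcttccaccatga
Gp2: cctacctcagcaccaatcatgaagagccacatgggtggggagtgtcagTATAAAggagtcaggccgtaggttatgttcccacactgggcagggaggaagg
Reg1: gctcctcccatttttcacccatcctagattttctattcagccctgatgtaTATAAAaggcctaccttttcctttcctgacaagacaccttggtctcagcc
The stretches lie at chr8:111690991-111691090 (minus strand, Ctrb1), chr15:100687901-100688000 (minus strand, Cela1), chr19:58670285-58670384 (plus strand, Pnlip), chr6:41035490-41035589 (minus strand, 2210010C04Rik), chr6:41302192-41302291 (plus strand, Try4), chr6:41377594-41377693 (minus strand, Prss3), chr7:119459253-119459352 (minus strand, Gp2) and chr6:78425903-78426002 (plus strand, Reg1) of GRCm38.p6, each read 5′ to 3′ along the gene. TATAAA began 27 bases before the start in Cela1, 30 in Pnlip, 2210010C04Rik and Reg1, 31 in Try4, 28 in Prss3 and 32 in Gp2. Ctrb1 holds cataaa, which differs from these letters only in the first, beginning 30 bases before the start. A match of letters is a description and does not show that a factor binds.

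Digestive enzymes, as a list of 36 genes, took 87.3%, 86.9%, 88.6% and 87.9% of the counts in mice 1 to 4. The mice lay close together, with a mean of 87.7% ± 0.741 (89.4% ± 0.453 of the summed FPKM). The 95% Wilson intervals of the single mice were at most 0.00723 percentage points wide on either side, far less than the spread between mice. Within the list, chymotrypsins and elastases (7 genes), serine proteases that cut at other residues than trypsin does, took 39.997% ± 1.43 of the counts, trypsinogens (11 genes) 18.3% ± 2.60 and lipid-digesting enzymes (6 genes) 16.1% ± 1.31. Carboxypeptidases (3 genes) took 11.1% ± 0.627, and Rnase1 and Klk1 together 2.14% ± 0.116.

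Each family was led by few members. Of the summed FPKM of chymotrypsins and elastases, Ctrb1 made up 53.4% ± 3.28, Cela2a 13.9% ± 1.74, Ctrl 11.97% ± 0.805, Cela1 11.2% ± 1.48 and Cela3b 9.42% ± 1.32, while Ctrc and Cela3a stood at 0.0605% ± 0.0112 and 0.00573% ± 0.000362. Cela3a and Cela3b are close copies of each other, so how their reads were divided is uncertain. Among carboxypeptidases, Cpa1 held 77.6% ± 1.78 and Cpb1 15.9% ± 1.68. Among lipid-digesting enzymes, Clps (colipase, the small cofactor of pancreatic lipase) held 31.7% ± 2.61, Pnlip (pancreatic lipase) 30.7% ± 1.61 and Cel (bile salt-dependent lipase) 24.1% ± 1.48, and Pnliprp1, Pla2g1b and Pnliprp2 the remainder.

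All 11 trypsinogens of the table lay within 560 kb on chromosome 6, at 40941688 to 41502013. Prss2 made up 37.0% ± 5.27 of their summed FPKM, Try4 31.97% ± 5.78, 2210010C04Rik 15.03% ± 2.44 and Try5 14.4% ± 3.27, and the other 7 genes shared the small rest. Largely through this locus and through Cpa1, chromosome 6 carried 27.3% ± 2.51 of all counts, more than chromosome 8 with Ctrb1 and Ctrl (19.6% ± 0.667) and chromosome 4 with Cela2a and Cela3b (13.0% ± 1.44). The trypsinogen copies share long stretches of sequence, so values of the minor ones are uncertain.

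Amylases, which digest starch, were far below the proteases. The 7 annotated amylase genes took 0.121%, 0.0744%, 0.0842% and 0.0812% of the counts in mice 1 to 4, with 632 ± 65.4 FPKM for Amy2a1, their leading gene, and 54.2 ± 6.20 for Amy2a5. Amy2b, which the table annotates as an unprocessed_pseudogene, had 39.5 ± 13.8. The pancreatic amylase copies are nearly identical, and how the counting treated reads that match several copies is not given in the sources used here, so these values are lower limits of what the locus makes if such reads were dropped. Whether reads were lost there was not tested.

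Other secreted and granule proteins of acinar cells (16 genes) took 4.51% ± 0.318 of the counts. Zg16, a lectin of the granule membrane, had an FPKM of 11421, 16920, 16054 and 16458, Sycn (syncollin) 11842, 14533, 15421 and 13444, and Gp2, the main glycoprotein of that membrane, 1769, 1950, 2018 and 1762. These granule proteins differed little between mice. The same list also holds the Reg lectins, which did not behave alike and are taken up with the variable genes. Spink1, the secreted trypsin inhibitor, had 468 ± 47.4.

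The machinery that makes and folds secreted proteins came next. Cytosolic ribosomal proteins (83 genes) took 1.83% ± 0.112 of the counts, translation factors (12 genes) 0.304% ± 0.0245, and genes of translocation into and folding in the endoplasmic reticulum (30 genes) 0.163% ± 0.0190. All 30 of the latter reached an FPKM of 1, with P4hb, a disulfide isomerase, at 221 ± 25.5, Ssr4, a translocon-associated subunit, at 82.2 ± 15.2 and Sec61b at 35.2 ± 5.01. The chaperone Hspa5 had 17.8 ± 4.19. The 16 mitochondrially encoded genes took 0.178%, 0.164%, 0.147% and 0.118% of the counts, led per length by mt-Nd1 (390 ± 84.2) and mt-Cytb (266 ± 28.4).

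Transcription factors that define acinar cells were present at modest levels. Of the 1164 genes that the table assigns to a transcription factor family, 74 reached a mean FPKM of 1, and all of them together took 0.154% ± 0.0210 of the counts. The highest of these genes, chosen after their values were seen, was Xbp1, a driver of endoplasmic reticulum expansion, with an FPKM of 43.3, 45.5, 49.9 and 45.6. Atf5 (22.9 ± 6.17) and Bhlha15 (18.2 ± 2.78), known as Mist1, followed. Among the 7 acinar factors of the list, Rbpjl had 11.6 ± 3.55, Gata4 3.54 ± 1.01 and Ptf1a 2.04 ± 0.912, while Nr5a2 (0.628 ± 0.146) and Gata6 (0.209 ± 0.0565) stayed below 1. Bach2 itself, the gene deleted in the other group, had 4, 4, 31 and 6 counts in mice 1 to 4 and a mean FPKM of 0.00938.

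**Figure D2:**
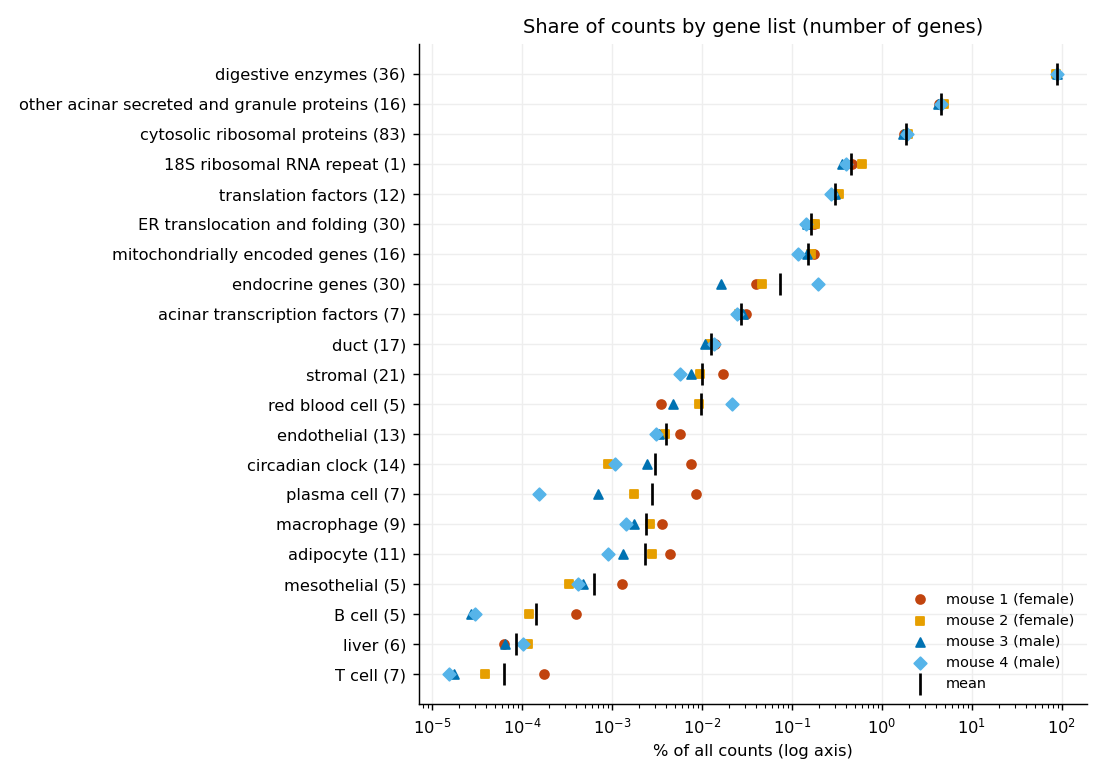
Share of all counts taken by gene lists, on a log axis, in each of the 4 Bach2WT mice (symbols) with the mean (bar); the number of genes of each list is in parentheses. Digestive enzymes hold 86.9% to 88.6% of the counts, whereas endocrine genes range from 0.0162% to 0.196% and plasma cell genes from 0.000155% to 0.00851%.

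By the biotype given in the table, protein_coding genes (15533) took 99.3% ± 0.109 of the counts. The rRNA biotype followed with 0.458% ± 0.108, nearly all of it Rn18s-rs5, although the libraries were selected for polyadenylated RNA. Processed pseudogenes (1915 genes) took 0.132% ± 0.00785 and lncRNA genes (2726) 0.0419% ± 0.00646. The leading processed pseudogene was Gm15427, with an FPKM of 174 ± 36.5. Every other biotype was under 0.02%.

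Among long noncoding RNAs, 1810028F09Rik was the most abundant, with 108, 108, 128 and 90.5 CPM in mice 1 to 4, and made up 26.4% of the lncRNA counts on average. With Gm10076, Neat1, 1810007D17Rik, AI506816, Snhg18, Galnt6os and 1810053B23Rik it held 55.6% ± 1.52 of them. 1810007D17Rik had 16.01, 25.1, 38.0 and 16.7 CPM. Galnt6os overlaps Galnt6 on the opposite strand, and since the sources used here do not give whether strand was used in counting, its value is uncertain. Only 181 of the 2726 lncRNA genes had 10 or more counts in every mouse, against 9740 of the 15533 protein_coding genes.

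Of the lists for cell types other than acinar cells, the endocrine one took the largest share of counts. The 30 endocrine genes took 0.0397%, 0.0462%, 0.0162% and 0.196% of the counts in mice 1 to 4, so that the share in mouse 4 was the highest and that in mouse 3 the lowest. The mean of 0.0745% ± 0.0819 rests on mouse 4, and without it was 0.0340%. Summed FPKM of digestive enzymes exceeded that of endocrine genes 2024-, 1877-, 5187- and 429-fold. Ins2 had 173, 236, 106 and 1209 CPM and Ins1 had 89.2, 145, 46.9 and 721 CPM. Both insulin genes were thus lowest in mouse 3 and highest in mouse 4.

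The makeup of the hormones varied less than their sum. Ins1 and Ins2 made up 87.7%, 85.8%, 92.8% and 94.0% of the summed FPKM of the 8 hormone genes, and the ratio of Ins2 to Ins1 stayed between 1.32 and 1.83. Gcg (glucagon) contributed 3.26% ± 2.14, Iapp (amylin, secreted with insulin) 2.86% ± 0.424 and Sst (somatostatin) 2.83% ± 1.42. Gcg had 12.4, 34.5, 3.97 and 37.2 CPM, so that mouse 2 was close to mouse 4 for glucagon, with an Ins2 to Gcg ratio in FPKM of 7.81 against 37.0. Ghrl had at most 2 counts in any mouse.

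Of the 22 other endocrine genes, Chga (chromogranin A, a granule protein) was the highest, with an FPKM of 9.70 ± 9.03 and 11.99, 23.1, 5.70 and 56.3 CPM. The hormone convertase Pcsk2 had 2.75, 4.19, 0.765 and 9.54 CPM. Islet transcription factors were near the limit of the libraries: Pdx1 had an FPKM of 0.506 ± 0.179 and Mafa 0.367 ± 0.283, and neither Neurod1 nor Rfx6 exceeded 3 counts in any mouse.

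Duct genes were even between mice. The 17 genes took 0.0138%, 0.0123%, 0.0109% and 0.0137% of the counts, a mean of 0.0127% ± 0.00136. Per length, Muc1 (43.6 ± 8.96 FPKM), a mucin of apical membranes, led the list, followed by the keratin Krt19 (5.76 ± 0.757) and the secreted phosphoprotein Spp1 (3.46 ± 1.61). Sox9, a transcription factor of the duct epithelium, was low at 0.543 ± 0.114 FPKM. Cftr, the chloride channel of ducts, had 0.00349 FPKM on average with counts in mouse 1 only, and Car2 had 0.0185 ± 0.0149. Most of the list's counts came from Muc1, which took 0.00925% of all counts.

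Stromal genes (21, of fibroblasts, stellate and mural cells) took 0.0172%, 0.00961%, 0.00747% and 0.00572% of the counts. Mouse 1 was the highest and mouse 4 the lowest, with a mean of 0.0100% ± 0.00506. Sparc, a matrix-binding protein, had the highest FPKM (3.40 ± 1.32), followed by Vim (1.89 ± 0.794), Dcn (1.74 ± 1.08), Col6a1 (1.70 ± 0.491) and Col1a1 (1.45 ± 0.555). Tagln, a smooth muscle gene, had 1 count in mouse 4 and none in the others. Endothelial genes (13) took 0.00400% ± 0.00117 of the counts and were led by Plvap (7.51 ± 1.73), which lines fenestrated capillaries.

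Endocrine genes took a similar share on both scales (0.0745% of counts and 0.0793% of summed FPKM), while duct, stromal and endothelial genes took less per length. Summed FPKM of digestive enzymes exceeded that of the duct list 12648 ± 1564-fold, that of the stromal list 42011 ± 17525-fold and that of the endothelial list 60700 ± 17030-fold. Stromal transcripts are long, and their share was 0.0100% of the counts and 0.00251% ± 0.00130 of the summed FPKM.

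Markers of other tissues and of blood-borne cells were checked in the same way. T cell genes (7) summed to 145, 59, 30 and 13 counts, that is 0.000178% (95% Wilson interval 0.000151 to 0.000209) in mouse 1 and 1.55e-05% (9.04e-06 to 2.65e-05) in mouse 4. Liver genes (6) summed to 51, 177, 112 and 87 counts, led by Alb, the intestinal genes Vil1 and Apoa4 to 6, 39, 12 and 26, all from Vil1, and neutrophil genes (3) to 0, 6, 2 and 0. Within these lists S100a8 and S100a9 of neutrophils, Apoa1, Fgb and Ahsg of the liver, and Apoa4 had no count in any mouse, which allows up to 0.0388 CPM in the shallowest library after scaling. Among macrophage genes, C1qa was the highest, with an FPKM of 9.98 ± 4.94. Cell cycle genes (10) summed to 3.23 to 4.69 CPM, and Mki67 had an FPKM of 0.0260 ± 0.0212.

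**Figure D3:**
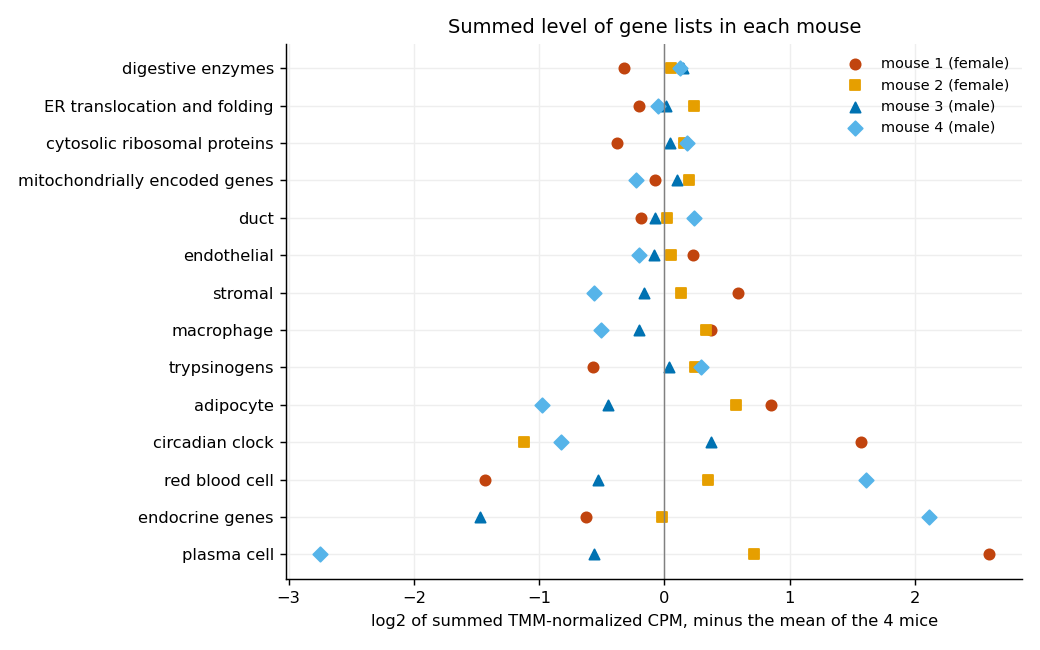
Summed level of gene lists in each Bach2WT mouse, as the log2 of the summed TMM-normalized CPM minus the mean of the 4 mice; each symbol is 1 mouse and the grey line is the mean. Digestive enzymes, ER genes, duct and endothelial genes lie close together, whereas endocrine and red blood cell genes are highest in mouse 4 and plasma cell and clock genes highest in mouse 1.

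How much a gene differs between mice of 1 genotype was measured as the SD of its log2 CPM among the 4 mice, over 6272 genes with a mean of at least 1 CPM. The median SD was 0.29 and the middle 90% of genes lay between 0.11 and 0.72. An SD over 1 was found for 121 genes, 1.93% of those examined. Counting error alone gives an SD of 0.13 at 1 CPM in a library of mean depth, or 0.19 if each read pair was counted as 2 reads. Since the genes were ranked on the same values, what follows is a description without a test.

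In most lists no member had an SD over 1. None of the 80 ribosomal protein genes, 30 ER genes, 12 translation factors, 13 mitochondrially encoded genes, 9 duct, 14 stromal and 10 endothelial genes that reached 1 CPM had an SD over 1, and neither did any chymotrypsin, elastase, carboxypeptidase or lipid-digesting enzyme. With 1.93% over all genes, such counts of 0 are near the background for lists of this size. The median SD was 0.20 in translation factors, 0.21 in mitochondrially encoded genes, 0.24 in ER genes, 0.26 in ribosomal proteins and 0.27 in the 34 digestive enzymes examined, against 0.29 in all genes. It was 0.32 in endothelial, 0.33 in duct and 0.48 in stromal genes. At a mean of at least 10 CPM (1094 genes), the smallest SD belonged to Atp2c2 (0.01), a calcium and manganese pump of the secretory pathway, with 10.2 CPM in mouse 1 and 10.1 in mouse 2. It was followed by Tcf25 (0.03), Ap2m1, Ptger3, Txndc5, Csnk1g2, Llgl2, Smox and Sec11c (0.05).

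In other lists, most or all examined members passed an SD of 1. This held for 6 of 6 islet hormones and 6 of 7 other endocrine genes (median SD 1.49 and 1.24), 5 of 5 plasma cell genes (2.74), 4 of 5 red blood cell genes (1.27), 5 of 7 clock genes (1.34) and 3 of 4 adipocyte genes (1.58). Within the acinar lists it held for 4 of 9 trypsinogens and for 5 of 16 other secreted proteins, which were the lectins Reg2, Reg3a, Reg3b, Reg3d and Reg3g. These counts cover only members at 1 CPM or more, and a gene with a low mean may have reached it through 1 mouse.

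**Figure D4:**
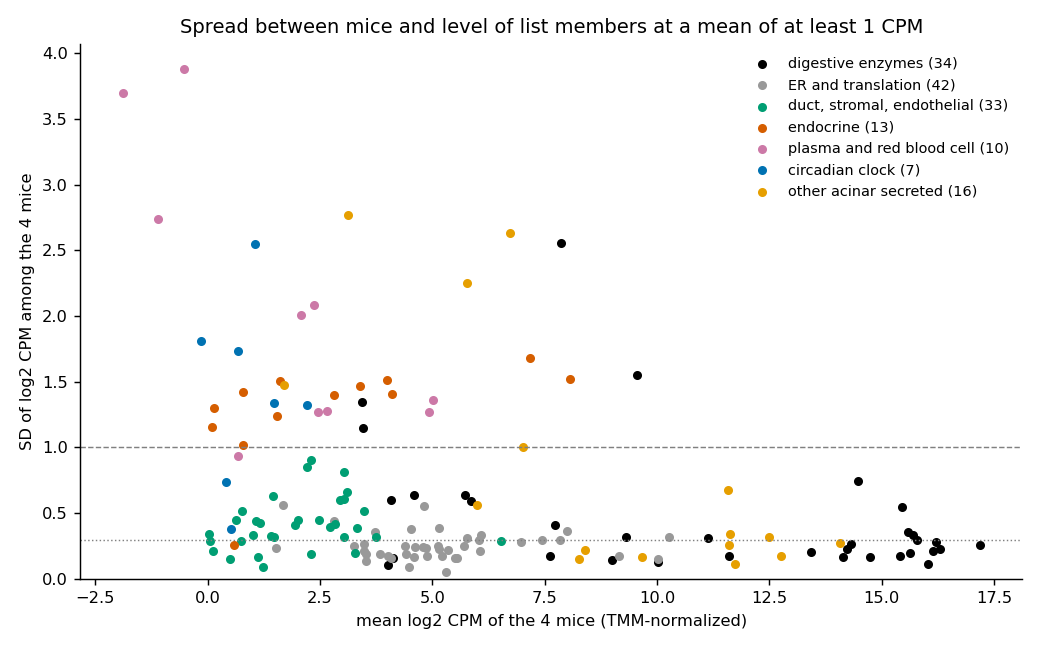
SD of log2 CPM among the 4 Bach2WT mice against the mean log2 CPM for list members with a mean of at least 1 CPM; each point is 1 gene, colours mark lists with their number of genes, the dashed line is an SD of 1 and the dotted line the median of all 6272 genes (0.29). Most digestive enzymes and all duct, stromal and endothelial genes lie under the dashed line, while 12 of the 13 endocrine genes lie above it.

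After Xist (SD 4.52), the genes of largest spread were immunoglobulin genes, with Ighg2c at 4.51 and Ighv1-78 at 4.02. Igkc, the constant region of the kappa light chain, had 23.2, 9.68, 3.88 and 0.776 CPM in mice 1 to 4, Ighm 23.3, 6.32, 2.40 and 0.880, and Jchain, which joins polymeric antibodies, 4.04, 0.794, 0.319 and 0.0259. These genes fell into the same order in the 4 mice, with mouse 1 the highest and mouse 4 the lowest. Igha had 10.0, 1.41, 0.943 and 0 CPM and Iglc1 7.49, 0.376, 0.0956 and 0. The variable segment Ighv1-78 had 446 counts in mouse 1 and none elsewhere. The chemokine Cxcl13, which attracts B cells, also ran from 2.72 CPM in mouse 1 to 0.0518 in mouse 4. Summed CPM of the 7 plasma cell genes was 68.2, 18.6, 7.68 and 1.68. Other lists were also highest in mouse 1, with 3.20, 1.24, 0.293 and 0.324 CPM for 5 B cell genes, 1.42, 0.404, 0.191 and 0.168 for T cell genes, 1.16, 0.315, 0.274 and 0.311 for 5 lymph node genes and 138, 101, 81.9 and 62.3 for stromal genes. Their part in the immunoglobulin values was not tested.

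Of the 5 clock genes with an SD over 1, Dbp, Per1 and Tef separated mouse 1 from the others, and Nr1d1 and Nr1d2 did not. Dbp, a clock-driven transcription factor, had 22.0, 0.390, 2.77 and 0.738 CPM, Per1, a repressor of the clock, 7.36, 0.855, 0.446 and 2.1999, and Tef, a relative of Dbp, 9.33, 1.07, 3.30 and 1.76. Usp2, a deubiquitinase with rhythmic expression, had 10.8, 0.917, 0.739 and 1.06 and was likewise highest in mouse 1. Nr1d1, a nuclear receptor that represses Arntl, had 7.48, 2.69, 12.9 and 1.73 and was highest in mouse 3, and its relative Nr1d2 had 3.11, 0.157, 1.68 and 0.686 and was lowest in mouse 2. In the opposite direction, mouse 1 was the lowest for Nfil3, a repressor of the targets of Dbp (0.137, 2.79, 2.52 and 2.43), and for Arntl, an activator of the clock (0.157, 0.664, 0.574 and 0.518). Dbp overlaps Sphk2 and Nr1d1 overlaps Thra on the opposite strand.

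Further genes with 1 departing mouse included Trim50 (0.0491, 1.99, 1.46 and 2.39 CPM) and C2cd4a (0, 1.52, 2.47 and 0.932), both lowest in mouse 1. Without mouse 1 their SD was 0.36 and 0.69, and that of Nfil3 was 0.10. Gm43305, a lncRNA, was lowest in mouse 3 (0.0765 CPM), and Bhlhe40, a clock-linked repressor, lowest in mouse 4 (0.104 CPM against 0.855 to 3.32).

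Mouse 4 was highest for most islet genes of large spread and for haemoglobin genes. Among the former, Sez6l2 (0.432, 0.965, 0.102 and 3.14 CPM) and Syt13 (0.501, 1.03, 0.147 and 3.55) had the order of the insulins. Chgb, of the endocrine list, was instead highest in mouse 2 (0.717, 2.44, 0.357 and 2.16 CPM). Haemoglobin genes were highest in mouse 4, but lowest in mouse 1 rather than mouse 3: Hba-a1 had 11.4, 41.5, 21.7 and 104 CPM, and Hbb-bs 11.2, 38.2, 22.1 and 90.2. Summed CPM of the red blood cell list was 28.2, 97.0, 52.6 and 233.

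The Reg lectins, secreted by acinar cells and known to respond to injury of the pancreas, divided the mice differently. Reg3a had 1.76, 38.4, 1.56 and 55.3 CPM, Reg3b 9.35, 191, 23.0 and 214, and Reg2 16.6, 243, 34.4 and 911. Mice 2 and 4, 1 of each sex, were above mice 1 and 3 for these genes without overlap. In the sample titles, mice 2 and 4 both carry mouse number 2, and mice 1 and 3 both carry number 1. Whether that number stands for a shared factor was not tested. Reg1, the most abundant of the family, followed the same division with less distance, at an FPKM of 2551, 6099, 2403 and 5048. Reg3d (73.7, 282, 71.4 and 197 CPM) and Reg3g (1.30, 5.82, 1.43 and 10.3) did so as well, whereas the zymogen Cpa1 did not, with 36917, 45851, 50901 and 47750 FPKM.

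The 4 trypsinogens with an SD over 1, all minor copies, were highest in mouse 2. Gm5771 had 35.9, 2536, 148 and 219 CPM, Prss3 230, 3146, 640 and 713, Prss1 3.41, 33.8, 11.1 and 10.4, and Gm10334 4.62, 30.96, 11.8 and 8.41. All 4 genes were also lowest in mouse 1. The other minor copies were divided. Try10 (478, 688, 605 and 799.7 CPM) and 1810009J06Rik (0.481, 0.554, 0.472 and 0.919) were highest in mouse 4, although Try10 was also lowest in mouse 1. Gm2663, by its share of the summed trypsinogen FPKM, was highest in mouse 2 and lowest in mouse 1 (0.000117%, 0.000431%, 0.000233% and 0.000206%). The major copies varied less: Try4 was highest in mouse 2 (69992 CPM against 29711 to 53130), but Prss2 was not (53739 against 38335 to 64022). Because the copies are similar, a difference between mice in 1 of them may reach the others through shared reads, which was not tested.

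A last set, chosen after its values were seen, was low in mouse 2 alone. Malat1, a long noncoding RNA kept in the nucleus, had 7.78, 0.705, 4.74 and 4.39 CPM, and Neat1, the scaffold of nuclear paraspeckles, 47.0, 6.23, 42.3 and 39.8. Firre, a further nuclear lncRNA, had 1.66, 0.198, 1.76 and 2.50 CPM. The kinases of splicing factors Clk1 (2.04, 0.308, 2.35 and 2.76) and Clk4 (1.89, 0.274, 2.24 and 1.32), and Mdm4 (2.83, 0.246, 1.54 and 1.79), an inhibitor of p53, showed the same gap, as did Rsrp1 (8.39, 1.77, 8.86 and 10.9). Of the 121 genes with an SD over 1, 104 had 1 mouse at least 2-fold outside the range of the other 3. This mouse was low for 22 and high for 6 genes in mouse 2, low for 13 and high for 16 in mouse 1, low for 9 and high for 1 in mouse 3, and low for 16 and high for 21 in mouse 4.

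**Figure D5:**
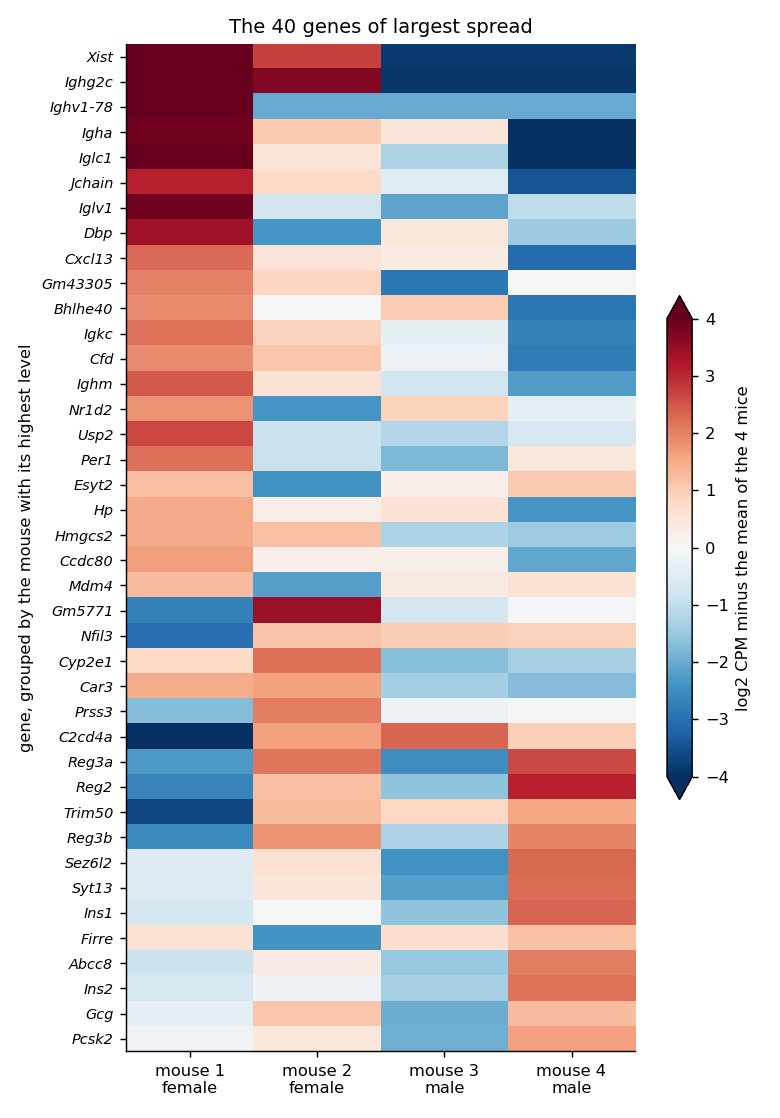
Log2 CPM minus the mean of the 4 Bach2WT mice (colour, saturated beyond 4 in either direction) for the 40 genes with the largest SD among those with a mean of at least 1 CPM, grouped by the mouse with the highest level. Most immunoglobulin genes, Dbp and Per1 are highest in mouse 1, Gm5771 and Prss3 in mouse 2, and Reg2 and the islet genes in mouse 4.

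The same measure was taken in the 4 Bach2KO mice, normalized apart. Over the 6189 genes that reached 1 CPM in both groups, 110 had an SD over 1 in Bach2WT and 149 (2.41%) in Bach2KO mice, and 45 genes were in both sets, 40.9% of the former and 30.2% of the latter. The 100 most variable genes of the Bach2WT mice had a median SD of 0.89 in the Bach2KO mice, where that of all genes was 0.31. Of the 100 most variable genes of each group, 35 were shared. Insulin genes (Ins1 1.41, Ins2 1.36), Reg2 (1.95), Igkc (3.28) and Usp2 (1.49) also had an SD over 1 there. Malat1 (0.24), Neat1 (0.33) and Trim50 (0.61) did not. The clock genes were divided, with Per1 at 2.06 and Dbp (0.66), Tef (0.70), Nr1d1 (0.95) and Nr1d2 (0.98) under 1.

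Sex was compared with edgeR's quasi-likelihood test on 2 females and 2 males, which called 5 of 12865 genes (0.0389%) after Benjamini-Hochberg adjustment, while 507 (3.94%) had an unadjusted p under 0.05. Xist, which coats the inactive X chromosome, had 737 and 228 counts in females and none in males, at least 152-fold higher over a floor of 3 counts per library (edgeR adjusted p = 0.0191). Ddx3y, a Y-linked helicase, had 203 and 98 counts in males and none in females, at least 51.3-fold higher (edgeR adjusted p = 0.0150). Both went with the labelled sex of every mouse. The number of genes called depended on which mice were in the edgeR fit, with 29, 83, 79 and 34 genes when mouse 1, 2, 3 or 4 was left out. Of the other Y-linked genes, Eif2s3y (68 and 101 counts), Uty (86 and 14) and Kdm5d (46 and 24) were found in males only and did not pass the test (edgeR adjusted p = 0.112, 0.629 and 0.764).

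The other 3 called genes were autosomal and higher in females. Adipoq, the adipocyte hormone adiponectin, had 215 and 259 counts in females and none in males (at least 67.0-fold, edgeR adjusted p = 0.00428). Car3, a carbonic anhydrase abundant in fat, had 6.66, 7.36, 0.918 and 0.699 CPM, a log2 difference of 3.10 ± 0.30 (SE, edgeR adjusted p = 0.00428). Ighg2c, the constant region of an immunoglobulin G subclass, had 433 and 466 counts in females and none in males (at least 128-fold, edgeR adjusted p = 0.00129). The adipocyte list includes Adipoq and Car3, so its sum partly repeats these calls. Its summed level was 35.4 and 29.1 CPM in females and 14.4 and 9.94 in males. Of its other members, Cfd, Fabp4, Cidec and Plin1 were also higher in both females. Lpl, the member of highest level, had an SD of log2 CPM under 1, unlike Car3, Cfd and Fabp4. Values of Lpl, Plin4, Lep, Retn and Pparg in each mouse are not given here. The part of adipose tissue in the differences between the sexes was not tested. With all 8 libraries in the edgeR fit, Car3 (adjusted p = 0.980) and Adipoq (adjusted p = 0.186) no longer passed. Ighg2c still passed there (edgeR adjusted p = 0.00419), but that fit also set female against male Bach2WT mice. The Bach2KO libraries in it had 0 CPM of Ighg2c in both sexes, so the difference was not seen in those mice.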

How the data were processed

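RNA-seq counts per gene and FPKM values were taken as the authors deposited them, for the 4 Bach2WT mice and, for the spread and 1 alternative fit, the 4 Bach2KO mice. The submitters' processing notes name fastp, HISAT2 2.2.1, featureCounts 2.0.6 and mm39. The annotation release, the use of strand and the treatment of reads with several matches are not given in the sources used here. The deposited counts are raw, and the deposited FPKM values were scaled by the authors for gene length and library. Of counts from 20 to under 200, 58.5% ± 1.28 (SD, n = 4) were even, so pairs may have entered as 2 reads and counting intervals may be too narrow. The authors' group means, normalized columns and own comparisons (fold changes and p-values) were not used, and 0 per-sample columns lacked a sample.

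Depth was 81648148 to 172029360 counts per library. Shares of counts, shares of summed FPKM and the SD of log2 CPM (TMM, prior count 2) were computed in Python 3.11.15 with numpy 2.4.6, pandas 2.3.3, scipy 1.17.1 and matplotlib 3.10.9. Sexes were compared in R 4.3.3 with the quasi-likelihood test of edgeR 4.0.16 (threshold 0.05 after Benjamini-Hochberg adjustment), and with DESeq2 1.42.0 as an alternative. The procedure was tested on simulated data with less variation between mice than in these libraries, which does not show its accuracy here. The labels give separate mice. Genes were named as the 30 of largest share of counts, the 15 of largest FPKM, the leaders of each biotype and list, the 30 of largest SD and the 10 of smallest, the genes called between the sexes, and members of the lists, with others said to be chosen after their values were seen. Members and lists were chosen with earlier results of these data known. Alternatives changed the normalization, filter, prior count, unit, denominator and samples. Promoter sequences came from a RefSeq table on GRCm38.p6 and gene positions from the deposited table on mm39. A few genes are not reported here.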

Additional observations from a re-analysis of the deposited data

Results flagged for a closer look

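In each group of 4 mice, the gap between the highest or lowest mouse and its nearest neighbour was divided by the whole range, and compared with the 95% critical value of Dixon's test. It was passed by 5 of 49 shares of counts, which chance passes in about 1 in 20, and by 4 of the 30 genes of largest SD, for which no chance rate applies because they were chosen for their spread. Mouse 4 was high for the share of counts on endocrine genes (gap over range 0.833). Mouse 1 was high for the share on mesothelial genes (0.852). Mouse 2 was low for the share on Cela2a (0.890) and high for those on Dmbt1 (0.856) and Prss3 (0.864). By log2 CPM, mouse 1 was high for Ighv1-78 (1, the other 3 mice being at 0 counts) and Usp2 (0.867), and low for Trim50 (0.864) and Nfil3 (0.953).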

How the results depend on the processing

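As a share of summed FPKM, digestive enzymes held 89.4%, protein_coding genes 99.1%, mitochondrially encoded genes 0.179%, duct genes 0.00715% and stromal genes 0.00251%. Of the counts outside digestive enzymes, protein_coding genes held 94.6%, lncRNA genes 0.340%, mitochondrially encoded genes 1.23%, endocrine genes 0.605%, duct genes 0.103% and stromal genes 0.0803%, and 2009.5 genes on average held 90%. Leaving out 1 mouse at a time gave 87.3% to 87.9% for digestive enzymes, 0.0340% (without mouse 4) to 0.0939% for endocrine genes and 0.00760% to 0.0114% for stromal genes. The number of genes with an SD over 1 was 21 of 1094 at a mean of at least 10 CPM, 5168 of 18761 with no filter on level, and 110 to 154 without 1 mouse. Of the 30 most variable genes, 9 had an SD under 1 without a single mouse, which were Ighv1-78 (0), Iglv1 (0.73), C2cd4a (0.69), Trim50 (0.36), Usp2 (0.26) and Nfil3 (0.10) without mouse 1, Bhlhe40 (0.97) and Ins1 (0.82) without mouse 4, and Esyt2 (0.54) without mouse 2.

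The test between sexes called 84 genes with no filter on low counts, 34 with the replicate block, 33 with DESeq2 and 29 to 83 without 1 mouse (29 without mouse 1, 83 without mouse 2, 79 without mouse 3 and 34 without mouse 4), where the lone mouse of a sex is assumed to vary like the others. The cause was not tested. Deviations of same-numbered mice of the 2 sexes correlated at r = 0.058 over 12865 genes. With 2 mice per sex, this cannot show whether the shared mouse number stands for a pairing. No direction was reversed under any alternative run. Depth limits genes near 3 counts per library.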
